A study of Drosophila melanogaster with 12 samples.

Results

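The maltase family of *Drosophila melanogaster* was followed in whole-fly RNA-seq through its 10 genes, *Mal-A1* to *Mal-A8*, *Mal-B1* and *Mal-B2*. The members were taken by gene symbol out of 17807 symbols with counts, and all 10 also had a normalized level among the 14246 symbols of the CPM table. The family was selected on its measured response to *bmm* overexpression in each sex and on the difference between these responses in the same libraries, so those values are given here as a description and are not tests of the family. The differences between males and females of a genotype were not themselves used in that choice and were tested. They are not independent of it, since the difference between responses is the sex difference with *bmm* overexpression minus that in controls. The 4 groups sequenced were male and female *da-GAL4>UAS-bmm* flies (*bmm* overexpression) and male and female *da-GAL4/+* flies (control), with 3 biological replicates per group and 20 pooled flies per replicate. The *da-GAL4* driver, built on the *daughterless* gene, makes GAL4 throughout the body, and this yeast protein turns on the *bmm* transgene behind its *UAS* element. *bmm* encodes the triglyceride lipase Brummer. All 4 groups carried the driver in a background backcrossed to w1118, all ate sucrose and yeast medium as adults, and the controls had no *UAS-bmm* transgene. Flies with the *UAS-bmm* transgene but without the driver were not analysed here, and the age of the sequenced adults was not given in the sources used here.

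Maltases are alpha-glucosidases. They release glucose from maltose, sucrose and short starch fragments, and in flies they act mainly in the midgut, where dietary sugar is cut before uptake by sugar transporters. The family grew by gene duplication, and its members encode similar enzymes that lie side by side in the genome. The expression of several digestive carbohydrases in *Drosophila* is known to drop on glucose-rich food, and the activin-like ligand Dawdle takes part in this repression.

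The libraries held between 20068187 and 34799635 counts, and members had counts in every library. The labels were checked with *bmm* itself. It had 10620, 12055 and 11048 CPM in *bmm* overexpression males, against 474, 234 and 192 CPM in control males. It had 4796, 5122 and 4455 CPM in *bmm* overexpression females, against 138, 131 and 147 CPM in control females. The 12 male accessory gland genes summed to between 3383 and 4568 CPM in male libraries and to at most 0.539 CPM in female libraries. Yolk, vitelline membrane and chorion genes were present in male libraries at a low level. Their median level, as a percentage of that in *bmm* overexpression females, was 0.201, 0.132 and 0.152 in *bmm* overexpression males, against 5.13, 1.31 and 0.659 in control males. Replicate 1 of the control males thus had the highest level of that group both for *bmm* and for these genes. The cause was not tested. Midgut genes, including 27 serine proteases and 4 enterocyte genes, were detected in all groups. In whole flies, fewer cells of a type and less RNA per cell cannot be told apart.

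The 8 *Mal-A* genes form 1 cluster of 24.3 kb on chromosome arm 2R (8449664 to 8473961, BDGP6.54 annotation), in the order *Mal-A1* to *Mal-A8*. *Mal-A1*, *Mal-A3* and *Mal-A7* lie on the minus strand and the other 5 on the plus strand. The smallest gaps were 65 bp between *Mal-A5* and *Mal-A6* and 126 bp between *Mal-A2* and *Mal-A3*. *Mal-B1* (2L, 11847226 to 11849169) and *Mal-B2* (2L, 11849958 to 11852881) are both on the plus strand, 788 bp apart, within the span of *Pde1c* on the other strand, whose exons do not overlap theirs. Exons of *Mal-A1* share 82 bp with *Cyp4e1* and those of *Mal-A8* share 6 bp with *mtt*, in both cases on opposite strands. The libraries were stranded, but the strand setting of the counting was not given in the sources used here, so reads from these 2 short overlaps could be assigned to either gene. Of 46 other annotated genes within 100 kb of the *Mal-A* cluster, 21 were tested between genotypes in males and 11 in females. In males 0 of the 21 passed adjusted p by edgeR or by DESeq2, with 2 at an unadjusted p under 0.05 in edgeR, and 2 of the 11 were higher in *bmm* overexpression females, where 9.8% of all genes were (exact test in edgeR, Benjamini-Hochberg adjusted).

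*Mal-A1* was the most abundant maltase per kb of exon in every group. It reached 525 ± 47 CPM per kb in *bmm* overexpression males, 737 ± 41 in control males, 217 ± 8.6 in *bmm* overexpression females and 133 ± 12 in control females (SD, n = 3 each). The order below it depended on sex. In control males, *Mal-A6* (192 CPM per kb), *Mal-B2* (184) and *Mal-A7* (159) followed, and the replicates of neighbours in that order overlapped. In control females, *Mal-A5* came second at 94.6 CPM per kb, above *Mal-A6* at 46.6 and *Mal-B2* at 45.6, and the replicates of *Mal-A6* and *Mal-B2* overlapped. *Mal-A5* was ninth in control males, at 31.8 CPM per kb. *Mal-A2*, *Mal-A3* and *Mal-A4* lay close together in each group, between 51.8 and 54.9 CPM per kb in control males and between 16.0 and 17.4 in control females, with overlapping replicates. *Mal-B1* was last in 3 of the groups, at 13.5 CPM per kb in control males, 7.25 in *bmm* overexpression females and 3.52 in control females. It was ninth in *bmm* overexpression males, at 28.3 CPM per kb, above *Mal-A5* at 25.7, and the replicates of the pair did not overlap.

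**Figure D1:**
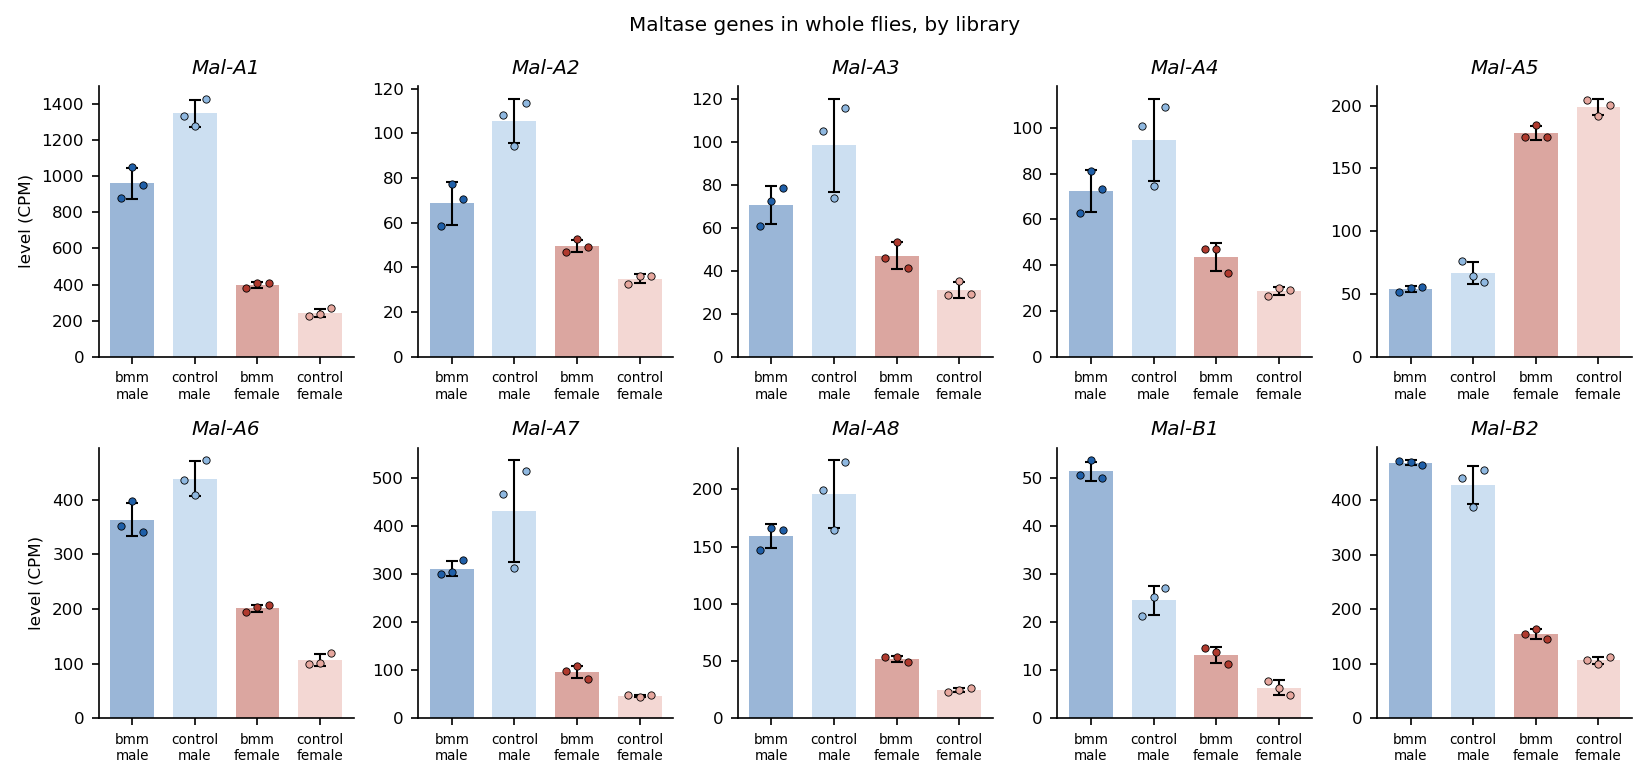
Level of each maltase gene in CPM (linear axes from 0, a separate scale per gene) in *bmm* overexpression males, control males, *bmm* overexpression females and control females. Points are the 3 libraries of a group, bars the mean and error bars the SD. Of the 10 genes, 9 are higher in males than in females of the same genotype, and *Mal-A5* is lower.

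*Mal-A1* moved with the *bmm* transgene in opposite directions in the sexes. It had 877, 1048 and 953 CPM in *bmm* overexpression males, against 1335, 1277 and 1427 CPM in control males. In females it had 378, 406 and 406 CPM with *bmm* overexpression, against 225, 237 and 267 CPM in controls. The groups did not overlap in either sex, with all 3 *bmm* overexpression males below and all 3 *bmm* overexpression females above their controls. The log2 fold change was −0.50 (SE 0.07) in males and 0.73 (SE 0.06) in females, and the male response minus the female response was −1.27 (SE 0.10).

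*Mal-A2*, the neighbour of *Mal-A1*, had the lowest log2 fold change of the family in males. Its levels were 58.4, 77.3 and 70.5 CPM in *bmm* overexpression males, against 108, 94.4 and 114 CPM in control males. They were 46.9, 52.7 and 49.3 CPM in *bmm* overexpression females, against 32.6, 36.1 and 36.2 CPM in control females. Again neither pair of groups overlapped. The log2 fold change was −0.63 (SE 0.11) in males and 0.53 (SE 0.06) in females.

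*Mal-A3* and *Mal-A4*, the next genes of the cluster, had similar levels to each other in each group. *Mal-A3* had 60.9, 72.4 and 78.6 CPM in *bmm* overexpression males, against 105, 74.2 and 116 CPM in control males. It had 46.3, 53.7 and 41.5 CPM in *bmm* overexpression females, against 28.8, 35.3 and 29.4 CPM in control females. For both genes the female groups were apart while the male groups overlapped, because replicate 2 of the control males was as low as the *bmm* overexpression males. *Mal-A4* had 62.7, 81.0 and 73.4 CPM in *bmm* overexpression males, against 101, 74.7 and 109 CPM in control males, and 46.9, 47.0 and 36.5 CPM in *bmm* overexpression females, against 26.7, 30.0 and 29.3 CPM in control females. The log2 fold changes of *Mal-A3* were −0.49 (SE 0.16) in males and 0.62 (SE 0.10) in females, and those of *Mal-A4* were −0.40 (SE 0.15) in males and 0.63 (SE 0.10) in females.

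*Mal-A6*, *Mal-A7* and *Mal-A8* make up the other end of the cluster and had the 3 largest log2 fold changes of the *Mal-A* genes in females. *Mal-A6* had 194, 204 and 207 CPM in *bmm* overexpression females, against 99.5, 102 and 119 CPM in control females. *Mal-A7* had 98.3, 108 and 82.5 CPM in *bmm* overexpression females, against 47.9, 44.2 and 48.3 CPM in control females. *Mal-A8* had 53.2, 53.5 and 49.0 CPM in *bmm* overexpression females, against 23.0, 25.0 and 26.7 CPM in control females. For each of the 3 genes, every *bmm* overexpression female library was above every control female library. The log2 fold changes in females were 0.94 (SE 0.07) for *Mal-A6*, 1.07 (SE 0.08) for *Mal-A7* and 1.09 (SE 0.07) for *Mal-A8*.

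In males the same 3 genes had lower means with *bmm* overexpression. *Mal-A6* had 351, 398 and 341 CPM in *bmm* overexpression males, against 437, 408 and 472 CPM in control males, without overlap. *Mal-A7* had 299, 305 and 329 CPM in *bmm* overexpression males, against 467, 312 and 514 CPM in control males. *Mal-A8* had 147, 166 and 164 CPM in *bmm* overexpression males, against 199, 164 and 223 CPM in control males. Replicate 2 of the control males lay within the range of the *bmm* overexpression males for *Mal-A7* and *Mal-A8*. The log2 fold changes were −0.28 (SE 0.07), −0.48 (SE 0.16) and −0.31 (SE 0.11) for *Mal-A6*, *Mal-A7* and *Mal-A8*.

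*Mal-A5*, in the middle of the cluster and 65 bp from *Mal-A6*, differed from the other *Mal-A* genes in females. It had 175, 185 and 175 CPM in *bmm* overexpression females, against 204, 192 and 200 CPM in control females. It had 51.2, 55.1 and 55.6 CPM in *bmm* overexpression males, against 76.0, 64.4 and 59.8 CPM in control males. All *bmm* overexpression libraries were below their controls in both sexes. The log2 fold change was −0.32 (SE 0.09) in males and −0.13 (SE 0.04) in females, and the difference between these responses was −0.23 (SE 0.12).

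The *Mal-B* genes did not share the pattern of the *Mal-A* cluster in males. *Mal-B1* had 50.6, 53.6 and 50.0 CPM in *bmm* overexpression males, against 21.3, 25.3 and 27.2 CPM in control males. It had 14.5, 13.7 and 11.2 CPM in *bmm* overexpression females, against 7.85, 6.41 and 4.89 CPM in control females. Its *bmm* overexpression libraries were above the controls in both sexes, with log2 fold changes of 1.06 (SE 0.09) in males and 1.07 (SE 0.17) in females. The difference between these responses was −0.04 (SE 0.20), and its sign was the same in 10 of 19 alternatives, turning with DESeq2, RLE size factors, limma and several single libraries left out.

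*Mal-B2* had 473, 469 and 464 CPM in *bmm* overexpression males, against 440, 388 and 456 CPM in control males. It had 154, 164 and 145 CPM in *bmm* overexpression females, against 106, 99.8 and 112 CPM in control females. The groups were apart in both sexes, by a wide margin in females and a narrow one in males. The log2 fold change was 0.12 (SE 0.07) in males and 0.56 (SE 0.06) in females, so *Mal-B2* had a positive value in both sexes, and the male response minus the female response was −0.48 (SE 0.10).

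**Figure D2:**
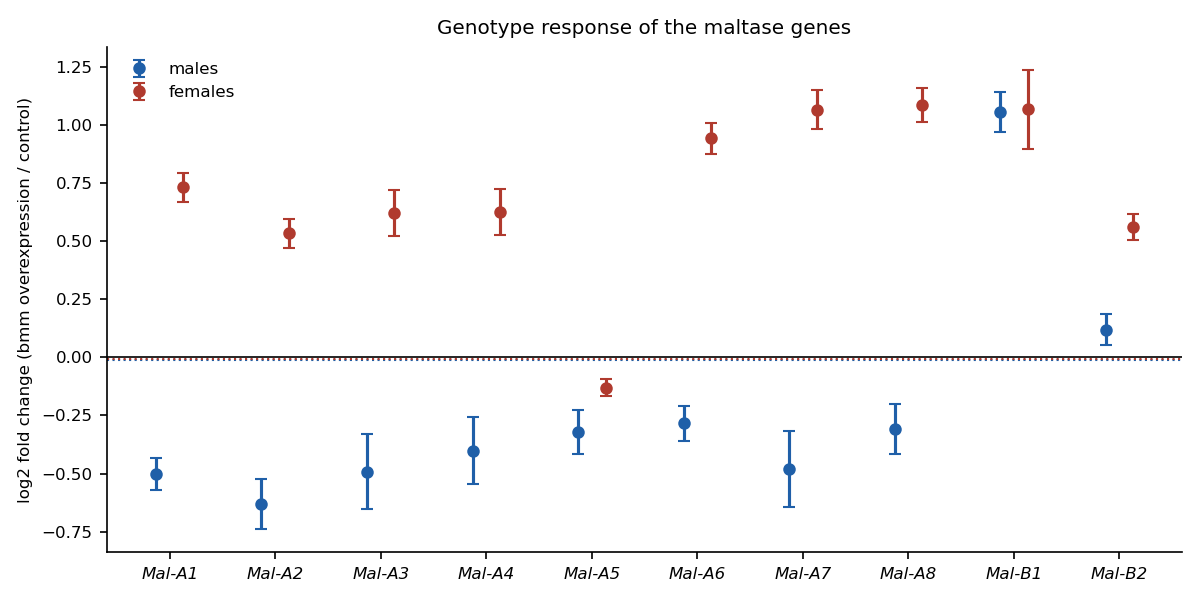
Log2 fold change of each maltase gene between *bmm* overexpression and control flies, in males and in females. Points are edgeR estimates, error bars their SE, and dotted lines the median of all genes tested (−0.01 in each sex). *Mal-A1* to *Mal-A4* and *Mal-A6* to *Mal-A8* lie below 0 in males and above 0 in females, *Mal-A5* lies below 0 and *Mal-B1* and *Mal-B2* above 0 in both sexes.

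Over the family, the median log2 fold change with *bmm* overexpression was −0.36 in males and 0.68 in females, against −0.01 over all genes tested in each sex. A gene was called at an adjusted p under 0.05. In males, 1 of 10 members was called higher (*Mal-B1*) where 1.92% of the 13632 genes tested were, and 2 were called lower (*Mal-A1* and *Mal-A2*) where 2.38% of all genes were. In females, 9 members were called higher where 9.8% of the 10488 genes tested were, and none was called lower where 4.41% of all genes were. With the added demand of a log2 fold change over 1, the call held in males for *Mal-B1* where it held for 0.249% of all genes, and in females for *Mal-A7*, *Mal-A8* and *Mal-B1* where it held for 1.22%. Scaling to library size alone split the calls of all genes in females into 1108 higher and 292 lower, against 1028 and 463 with TMM. The response in males was lower than that in females for 8 members where 2.62% of the 13988 genes tested were called lower, and higher for none where 0.286% were called higher. With RLE size factors the calls of all genes for this difference were 62 higher and 219 lower, against 40 and 367 with TMM. These counts repeat the contrasts on which the family was chosen, and nothing is read from them.

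Without overlap of the libraries, 2 members were above the controls in males where 12.9% of all genes were, and 4 were below where 9.9% were. In females, 9 members were above the controls where 14.7% of all genes were, and 1 was below where 20.3% were. In both sexes, *Mal-B1* and *Mal-B2* were among those above and *Mal-A5* among those below.

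The number of members called in males depended on 1 library and on the test. Without replicate 2 of the control males, 7 members were called, and the log2 fold changes of *Mal-A3*, *Mal-A4*, *Mal-A7* and *Mal-A8* were −0.66, −0.55, −0.67 and −0.42. Without replicate 3 of the control males, *Mal-A5* was also called, at −0.40. With single male libraries left out, between 310 and 744 of all genes were called in males. The share of all genes called without replicate 2 of the control males alone is not given here. The 7 members called in that fit thus have no background of their own. DESeq2 called 8 members in males, 7 of them lower. Those it added were *Mal-A3* to *Mal-A6* and *Mal-A8*. The family was chosen on this contrast, so these calls are a description. The share of all genes that DESeq2 called in males is not given here, so its count of members has no background beside it. On simulated counts the exact test called unchanged genes at more than the nominal rate. The quasi-likelihood test called 253 of all genes in males, against 587 by the exact test, and it called 3 members in males and 9 in females, as many as the exact test. With the replicate number as a block, which paired the female libraries, *Mal-A5* was also called in females, as lower. It was past the threshold in that 1 of 14 alternatives only, and the call is a description. In males, all 19 of the yolk, vitelline membrane and chorion genes tested fell with *bmm* overexpression (median log2 fold change −3.94), beside the lower values of the *Mal-A* genes. After subtraction of the matching share of the female profile from each male library, 3 members were called as before and the median of the family was −0.38. Of the yolk, vitelline membrane and chorion genes, 4 were left above the filter after the subtraction, 2 of them called lower, with a median log2 fold change of −4.33 over the 4.

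**Figure D3:**
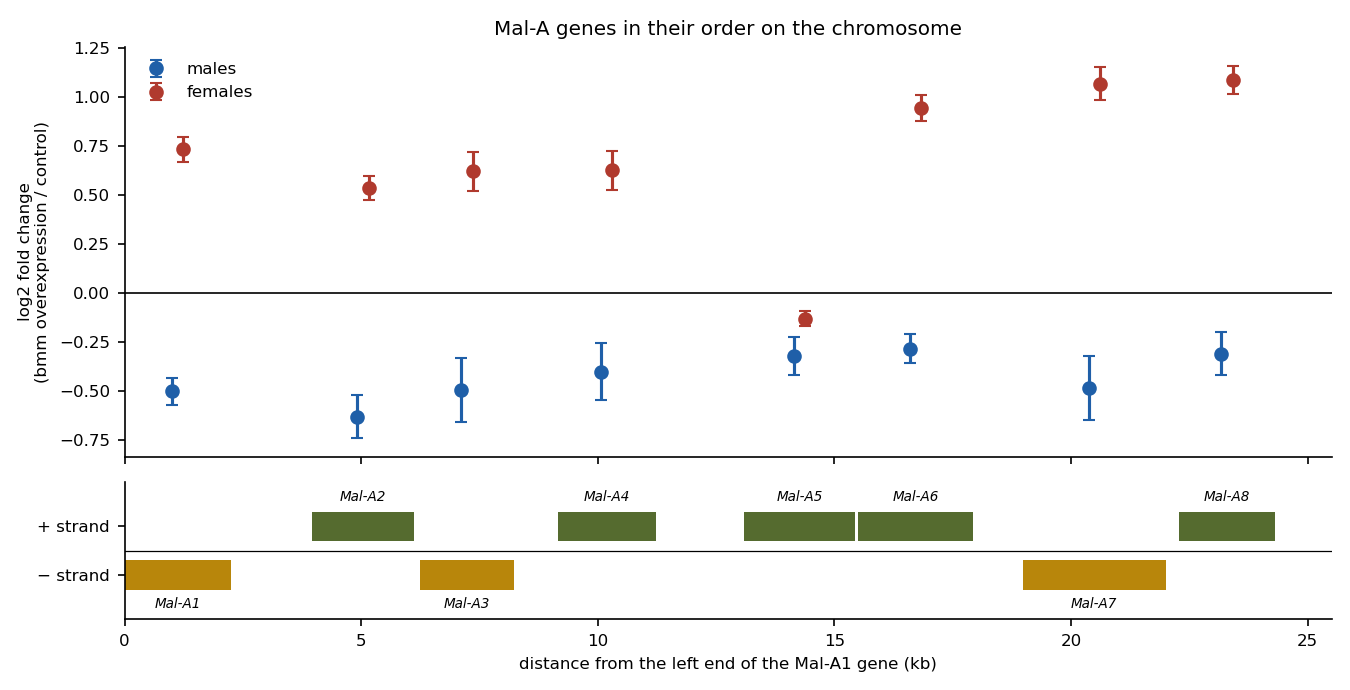
Log2 fold change with *bmm* overexpression in males and females (upper panel, points with SE) at the position of each *Mal-A* gene, with the extent and strand of the 8 genes (lower panel) in kb from the left end of *Mal-A1*. In females *Mal-A5* (−0.13) lies between *Mal-A4* (0.63) and *Mal-A6* (0.94), while in males all 8 genes lie between −0.63 and −0.28.

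Males and females differed in every member. In control flies, 9 members rose in males relative to females and *Mal-A5* fell, with adjusted p between 1e-11 and 3.1e-07 (edgeR's quasi-likelihood test). Such differences were common in whole flies, since 53.6% of the 13988 genes tested were higher in control males and 38.9% lower. Of 21 other genes tested within 100 kb of the *Mal-A* cluster, 20 were higher in control males and 1 lower (median 2.58). With *bmm* overexpression 18 were higher in males and 1 lower (median 2.51). Of these neighbours, 11 passed the filter on low counts in females, against 21 in males. For those that passed through males alone, the filter set the direction. The largest difference in control flies was in *Mal-A7*, with a log2 fold change of 3.21 (SE 0.16), or 9.23-fold. *Mal-A8* followed at 2.98 (SE 0.11), *Mal-A1* at 2.47 (SE 0.08), *Mal-A6* at 2.04 (SE 0.08), *Mal-B2* at 2.01 (SE 0.07) and *Mal-B1* at 1.94 (SE 0.15). *Mal-A2*, *Mal-A3* and *Mal-A4* lay between 1.60 and 1.73. *Mal-A5* fell by 1.57 on the log2 scale (SE 0.09), and no male library of either genotype reached the lowest female library.

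In *bmm* overexpression flies the same 9 members were higher in males and *Mal-A5* was lower, where 51.7% of all genes were called higher and 39.8% lower. The adjusted p lay between 2.5e-10 and 0.0066 (edgeR's quasi-likelihood test). The log2 fold changes of males over females were 1.62 (SE 0.15) for *Mal-A7*, 1.54 (SE 0.10) for *Mal-A8*, 1.20 (SE 0.07) for *Mal-A1* and 0.78 (SE 0.08) for *Mal-A6*. They were 0.66 (SE 0.14) for *Mal-A4*, 0.51 (SE 0.15) for *Mal-A3* and 0.40 (SE 0.09) for *Mal-A2*. *Mal-B1* at 1.90 (SE 0.14) and *Mal-A5* at −1.80 (SE 0.09) stayed near their values in control flies. Ovaries and eggs contribute a large part of female RNA, and a change in the share of gut RNA and a change in expression per gut cell cannot be told apart here.

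The median over all genes was itself positive, at 0.43 in *bmm* overexpression flies and 0.54 in control flies, and it moved by over 0.1 with the scaling of the libraries. With RLE size factors it was 0.64 in *bmm* overexpression flies and 0.69 in control flies. Relative to it, the median of the family was higher by 0.56 in *bmm* overexpression flies and by 1.43 in control flies. Scaling cannot move these distances, since it shifts all genes of a library alike. On this relative scale *Mal-A2* in *bmm* overexpression flies was level with all genes (0.40 against 0.43). The drop from 1.43 in control flies to 0.56 with *bmm* overexpression repeats the difference between responses on which the family was chosen. It is a description and not a separate test.

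**Figure D4:**
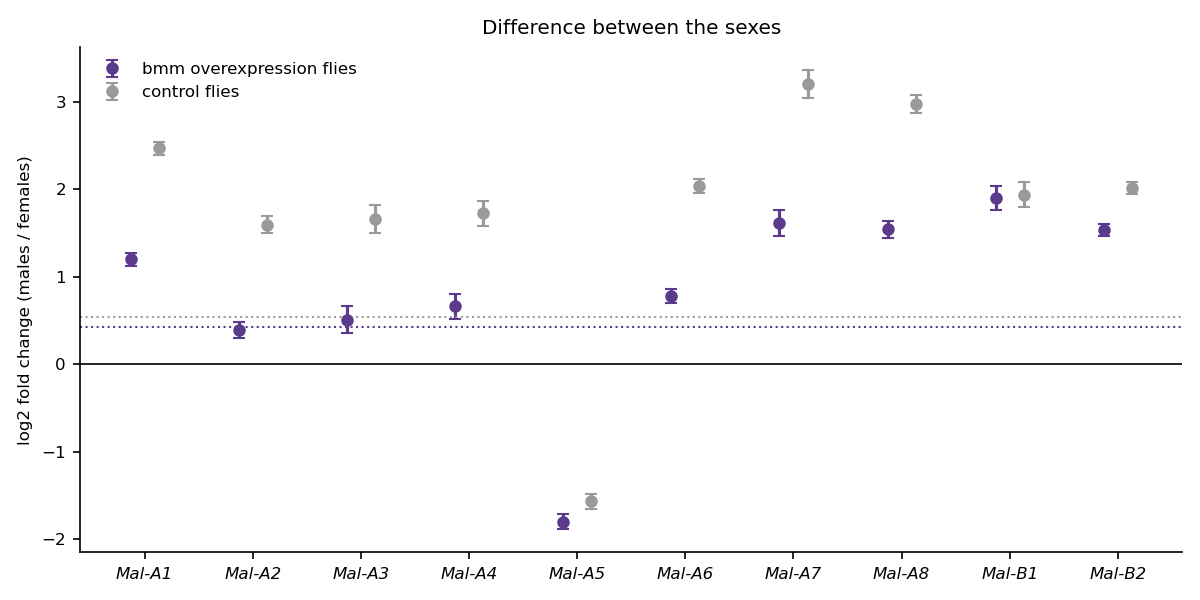
Log2 fold change of males over females for each maltase gene, in *bmm* overexpression flies and in control flies. Points are edgeR estimates, error bars their SE, and dotted lines the median of all genes tested (0.43 in *bmm* overexpression flies, 0.54 in control flies). *Mal-A5* is the one member below 0, at −1.80 and −1.57.

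The summed level of the 10 genes was 2431, 2727 and 2581 CPM in *bmm* overexpression males, against 3290, 2883 and 3518 CPM in control males. It was 1208, 1287 and 1203 CPM in *bmm* overexpression females, against 802, 807 and 874 CPM in control females. The sums did not overlap in either sex. The mean of *bmm* overexpression over that of controls was 0.799 in males and 1.49 in females, and males over females was 2.09 with *bmm* overexpression and 3.90 in controls. *Mal-A1* contributed the largest share, 37.1 ± 1.2% in *bmm* overexpression males, against 41.8 ± 2.2% in control males, and 32.2 ± 1.3% in *bmm* overexpression females, against 29.3 ± 1.3% in control females (SD, n = 3 each). *Mal-A5* made up 14.5 ± 0.12% of the sum in *bmm* overexpression females, against 24.1 ± 1.3% in control females, and about 2.09% in *bmm* overexpression males and 2.08% in control males.

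Midgut proteases, which digest protein in the same organ, had the opposite balance between the sexes. The sum over 27 trypsin and Jonah serine protease genes lay between 2903 and 2962 CPM in *bmm* overexpression males and between 2922 and 3174 CPM in control males. In females it lay between 8654 and 11340 CPM with *bmm* overexpression and between 10904 and 11756 CPM in controls. In control flies, 23 of these 27 genes fell in males relative to females and 2 rose (median log2 fold change −2.11), while 9 of 10 maltases rose, where 38.9% of all genes were called lower and 53.6% higher. Only 25 of the 27 proteases passed the filter on low counts in males, against all 27 in females. For a protease that passed through the female libraries alone, the filter set the direction. The *Jonah* genes *Jon25Bii*, *Jon65Ai* and *Jon25Biii* had log2 fold changes of −5.11 (SE 0.17), −5.09 (SE 0.20) and −3.81 (SE 0.15). The 4 enterocyte genes, *mex1*, *Myo31DF*, *nub* and *GATAe*, summed to between 156 and 176 CPM in *bmm* overexpression males, between 187 and 223 CPM in control males, between 194 and 217 CPM in *bmm* overexpression females and between 184 and 200 CPM in control females. The enterocyte sum was thus lower with *bmm* overexpression in males, without overlap, as was the maltase sum, and its part in the maltase levels was not tested.

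Other genes of carbohydrate breakdown, not all of them for the digestion of food, were counted beside the maltases (exact test in edgeR, Benjamini-Hochberg adjusted over all genes). Of 13 further carbohydrases, which include amylases, lysosomal alpha-mannosidases, a beta-galactosidase and trehalase, 6 fell and none rose in *bmm* overexpression males (median log2 fold change −0.49), where 2.38% of all genes were called lower and 1.92% higher. In females, 3 rose and none fell (median 0.19), where 9.8% of all genes were called higher and 4.41% lower. *Amyrel*, a relative of amylase, had 2.62 ± 0.33 CPM in *bmm* overexpression males and 7.99 ± 2.9 CPM in control males (SD, n = 3 each), a log2 fold change of −1.62 (SE 0.28). In females *Amyrel* had 3.07 ± 0.38 CPM with *bmm* overexpression and 2.16 ± 0.19 CPM in controls, a log2 fold change of 0.53 (SE 0.17). The mannosidase genes *LManIII* (−0.83, SE 0.13) and *LManV* (−0.88, SE 0.18) and the beta-galactosidase gene *Gal* (−0.65, SE 0.12) also fell in males, and *LManII* (0.44, SE 0.05) and *LManI* (0.46, SE 0.06) rose in females. The response of *LManI*, *Amyrel*, *Gal* and *LManIII* was lower in males than in females by the test of the difference itself (edgeR's quasi-likelihood test, adjusted p between 0.0054 and 0.027). For this difference, 2.62% of all genes were called lower and 0.286% higher. The counts moved with the test and with single libraries. With the quasi-likelihood test 3 of the 13 fell in males, and without replicate 3 of the *bmm* overexpression females 6 rose in females. For the difference between responses, 2 passed without replicate 1 or 2 of the *bmm* overexpression males or replicate 1 or 2 of the *bmm* overexpression females. Among control females, 1 passed without replicate 1, 0 without replicate 2 and 2 without replicate 3. Over all genes, these fits called between 61 and 203, against 407 with all libraries.

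Sugar transporters, which take up the products of maltases or carry trehalose, moved with the maltases in females. Of 11 tested in females, 7 rose and none fell (median log2 fold change 0.51), where 9.8% of all genes were called higher. The predicted sugar transporter gene *CG6484* averaged 66.4 ± 7.6 CPM in females with *bmm* overexpression, against 34.0 ± 2.9 CPM in their controls (SD, n = 3 each), a log2 fold change of 0.99 (SE 0.09). *CG1208* (0.77, SE 0.10), the trehalose transporter gene *Tret1-1* (0.58, SE 0.04) and *CG4607* (0.51, SE 0.07) also rose. Of 13 tested in males, 2 rose and none fell (median 0.01), where 1.92% of all genes were called higher, with *CG15406* at 0.55 (SE 0.07) and *CG15408* at 0.37 (SE 0.09). The response was lower in males than in females for *CG6484*, *CG1208*, *CG4607* and *Tret1-1* (edgeR's quasi-likelihood test, adjusted p between 0.00021 and 0.014). For this difference, 2.62% of all genes were called lower and 0.286% higher. Without replicate 2 or 3 of the *bmm* overexpression females or replicate 1 or 2 of the control females, 2 transporters passed. Those fits called between 61 and 120 of all genes. Between genotypes in males, the quasi-likelihood test called 1 transporter.

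Of 8 regulators of carbohydrate-digesting genes, which include *sug*, *Mondo*, *bigmax*, *cbt* and the components of the Dawdle pathway *daw*, *babo*, *put* and *Smox*, 1 passed the test in males and 0 in females. In females 1 had an unadjusted p under 0.05 and DESeq2 called 0. Of all genes, 1.92% were called higher and 2.38% lower in males, and 9.8% higher and 4.41% lower in females. *daw* had 84.5 ± 12 CPM in *bmm* overexpression males and 59.8 ± 8.7 CPM in control males (SD, n = 3 each), a log2 fold change of 0.49 (SE 0.13, adjusted p = 0.025, edgeR's exact test). The call of *daw* was lost with the quasi-likelihood test, limma, the replicate block, library size alone, and without replicate 1 or 3 of either male group. In females *daw* had 48.9 ± 6.6 CPM with *bmm* overexpression and 52.4 ± 0.64 CPM in controls. Of the midgut proteases, 7 of 25 tested fell and 2 rose in males (median −0.38), led by *Jon25Biii* (−0.87, SE 0.17). This was where 2.38% of all genes were called lower and 1.92% higher, and the quasi-likelihood test called 1 protease lower and 0 higher. After subtraction of the matching share of the female profile from each male library, 3 of the 25 proteases fell and 1 rose (median −0.30). The share of all genes called after that subtraction is not given here. In females 3 of 27 fell and 2 rose (median −0.06), where 4.41% of all genes were called lower and 9.8% higher. With each library left out in turn, between 3 (without replicate 1 of the *bmm* overexpression males) and 9 (without replicate 3 of the control males) fell in males, with 4 without replicate 2 or 3 of the *bmm* overexpression males. In females, the replicate block that pairs the libraries called 7 lower and 4 higher, 8 fell without replicate 2 of the *bmm* overexpression females, 4 rose without replicate 1 of that group or replicate 3 of the control females, and 1 rose without replicate 3 of the *bmm* overexpression females or replicate 1 or 2 of the control females. Among enterocyte genes, *Myo31DF*, which encodes an unconventional myosin, fell in males (−0.42, SE 0.07), and *mex1* (0.89, SE 0.12) and *nub* (0.56, SE 0.17) rose in females. The call of *Myo31DF* was lost without replicate 1 of the *bmm* overexpression males. The call of *nub* was lost with limma, with the quasi-likelihood test, and without replicate 3 of the *bmm* overexpression females or replicate 1 or 2 of the control females.

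**Figure D5:**
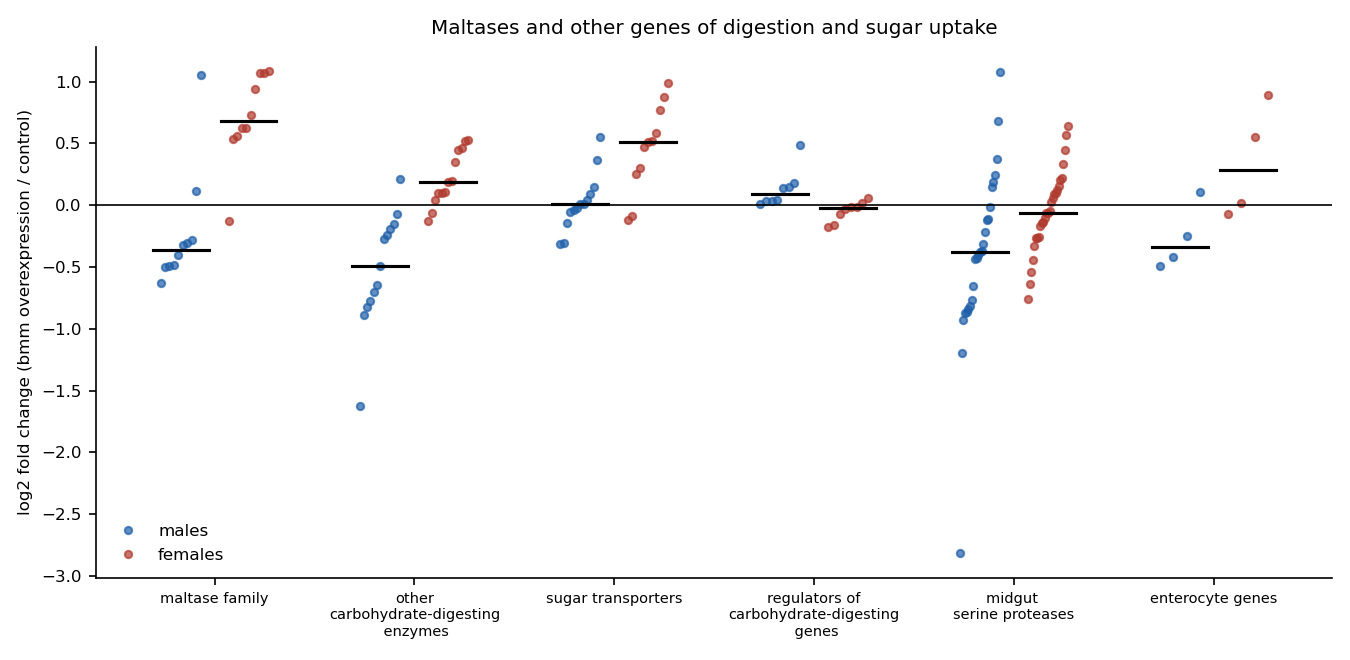
Log2 fold change with *bmm* overexpression for single genes (points) and the median of each group of genes (black bars), in males and in females. The maltase medians are −0.36 in males and 0.68 in females, those of the other carbohydrases −0.49 and 0.19, of the sugar transporters 0.01 and 0.51, and of the midgut proteases −0.38 and −0.06.

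The likeness of other genes to the family was measured over the 12 libraries as the Pearson correlation with the mean profile of the 10 members, on log2(CPM + 1) with the mean of each sex removed. This is a description, since the profile holds the genotype responses and the libraries share their depth and composition. Of 9187 genes compared, the 5 most alike outside the family were *CG1208* (r = 0.978), *CG15533* (0.972), *pug* (0.966), *lectin-28C* (0.961) and *CG34040* (0.954). *CG1208* is a sugar transporter by prediction, *CG15533* encodes a sphingomyelinase, *pug* a folate enzyme and *lectin-28C* a C-type lectin. *CG34040* averaged 49.5 CPM in *bmm* overexpression males and 76.6 CPM in control males, and 4.73 CPM in females with *bmm* overexpression, against 1.01 CPM in their controls. Among the members, *Mal-A8* (0.992), *Mal-A7* (0.976) and *Mal-A6* (0.958) were closest to the profile they are part of, and *Mal-B1* (0.396) and *Mal-A5* (−0.114) were farthest.

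Some pairs of members also varied together among replicates of a group. After removal of each group's mean, the highest correlations over the 12 libraries were 0.91 between *Mal-A1* and *Mal-A6*, 0.91 between *Mal-A4* and *Mal-A8*, 0.88 between *Mal-A3* and *Mal-A4*, and 0.89 between *Mal-A7* and *Mal-B2*. Other pairs of the cluster were low, with 0.27 between *Mal-A3* and *Mal-A6*, 0.33 between *Mal-A1* and *Mal-A7*, and 0.36 between *Mal-A6* and *Mal-A7*. Whether such values are particular to the family was not tested. *Mal-A5* had no correlation above 0.21 with another member, and *Mal-B1* none above 0.15. Since replicates share 20 flies per pool, these values describe pools and not single flies.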

How the data were processed

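Stranded mRNA libraries of whole flies were sequenced, and per the study's methods the authors aligned trimmed reads to BDGP6.28 with HISAT2, removed alignments with mapping quality under 60 and counted reads per gene with featureCounts. Reads that match several duplicated maltase genes equally well would be lost at that filter. Tool versions and the strand setting are not given in the sources used here. The authors deposited whole-number counts without normalization, and a signal per gene, which is each count over a scale factor of its library (CPM here).

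Each sex was filtered with filterByExpr, scaled by TMM and compared by edgeR 4.0.16's exact test with Benjamini-Hochberg adjustment. SE came from its quasi-likelihood fit. Contrasts between the sexes and between responses were quasi-likelihood tests over all 12 libraries. Alternatives used DESeq2 1.42.0, limma 3.58.1 on log2(CPM + 1) or log2(CPM + 0.1), other scalings, no filter, a replicate block and each library left out. The tests were checked on simulated counts, where the exact test found nearly all changed genes but called unchanged genes at more than the nominal rate. Positions and exon lengths came from BDGP6.54. Members and lists were chosen with earlier results of these data known. All members are named, with list genes past adjusted p 0.05 (at most 4 per list and contrast) and the 5 genes most alike.

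Replicates of a group differed by more than sampling noise and count as biological replicates per the labels. From the data, same-numbered female libraries deviated together (r between 0.198 and 0.394), so the block was taken as a pairing in females.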

Additional observations from a re-analysis of the deposited data

Results flagged for a closer look

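The response to *bmm* overexpression differed between males and females in 8 of the 10 maltase genes in the quasi-likelihood interaction test of edgeR. The family was chosen on these values, so they are a description. For all 8 the male response was the lower, where 2.62% of all genes were called lower and 0.286% higher. The male response minus the female response was −1.27 for *Mal-A1*, −1.20 for *Mal-A2*, −1.15 for *Mal-A3*, −1.07 for *Mal-A4*, −1.26 for *Mal-A6*, −1.59 for *Mal-A7*, −1.43 for *Mal-A8* and −0.48 for *Mal-B2* on the log2 scale. In *Mal-B2* both responses were positive, and in the other 7 genes the male value was negative and the female value positive. *Mal-A1*, *Mal-A2*, *Mal-A6*, *Mal-A7* and *Mal-A8* were past the threshold in all 19 alternatives run. *Mal-A3*, *Mal-A4* and *Mal-B2* were not past it, leaving 5 members, without replicate 1 or 2 of the *bmm* overexpression females, replicate 1 of the *bmm* overexpression males, or any single replicate of the control females. *Mal-B2* was also not past it without any other single *bmm* overexpression library, and with limma (−0.40).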

How the results depend on the processing

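In males, 3 members were called at adjusted p under 0.05, and DESeq2 called 8, for which no share of all genes is given here. Over all genes, the 587 calls in males became 317 with limma at a pseudocount of 0.1, 275 at a pseudocount of 1, 253 with the quasi-likelihood test and 272 with the replicate block. In males same-numbered libraries shared only a number (r between −0.014 and 0.12), and the block called 2 members. In females, the 1491 calls became 984 with limma at a pseudocount of 0.1. For the difference between responses, the 407 calls became 735 with DESeq2, 246 with limma and 255 with the replicate block, and the block left 8 members called. The difference of *Mal-B1* (−0.04) turned to 0.01 with DESeq2, 0.02 with RLE size factors and 0.09 with limma. The median of the family between the sexes was 2.13 in control flies with DESeq2 and with RLE size factors and 2.24 with library size alone, against 1.98 with TMM. In *bmm* overexpression flies it was 1.20, 1.20 and 1.25 with these settings, against 0.99. The cause of these changes was not tested, except that the scalings shift all genes alike.

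With each library left out in turn, 3 to 7 members were called in males and 9 in females. The calls over all genes ran from 310 to 744 in males and from 794 to 1163 in females. For the difference between responses, 5 to 8 members and 61 to 568 genes were called, the median of the family ran from −1.22 to −1.04, and *Mal-B1* ran from −0.16 to 0.19. The median r of the 5 genes most like the family, 0.966, ran from 0.96 to 0.974. With 3 replicates per group, a member with a small response, such as *Mal-A5* in females, is near the limit of what these libraries resolve.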

Other observations

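*tobi*, an alpha-glucosidase gene outside the *Mal* family whose expression in flies answers to insulin-producing cells, had the same balance between the sexes as most maltases. It averaged 254 ± 19 CPM in *bmm* overexpression males against 55.0 ± 16 CPM in females of that genotype, and 355 ± 80 CPM in control males, against 52.4 ± 11 CPM in control females (SD, n = 3 each). The log2 fold change of males over females was 2.13 (SE 0.22) with *bmm* overexpression and 2.76 (SE 0.23) in controls. These were the highest values among the 13 further carbohydrases. With *bmm* overexpression, 3 of the 13 were called higher in males and 5 lower (median −0.17), where 51.7% of all genes were higher and 39.8% lower. In controls 8 were higher and 2 lower (median 0.21), where 53.6% of all genes were higher and 38.9% lower. Of the 13 sugar transporters, 12 were higher in *bmm* overexpression males than in *bmm* overexpression females and 1 was lower, where 51.7% of all genes were higher. In control flies 11 were higher in males and 1 was lower, where 53.6% of all genes were higher. Only 11 of the 13 transporters passed the filter on low counts in females, against all 13 in males. For a transporter that passed through the male libraries alone, the filter set the direction, so its call is no separate result. *Tret1-1* was higher in males by 1.46 (SE 0.06) with *bmm* overexpression and by 1.93 (SE 0.06) in controls on the log2 scale.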
